A study of Rattus norvegicus with 6 samples.

Results

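The sodium-potassium ATPase, the pump of the basolateral membrane of kidney tubule cells, was examined through the genes of its beta subunits and of the Fxyd proteins that attach to it. The genes were Atp1b1, Atp1b2, Atp1b3, Fxyd1, Fxyd2, Fxyd4 and Fxyd5. They were found on the array by matching each probe's transcript accession to a RefSeq gene table. Of the 7 genes, 6 were matched, by 10 of the 61537 non-control probes. No probe was matched to Fxyd4, which is not analysed here. All 6 matched genes were well above background on all 6 arrays in the probe that stands for them. They are 6 of the 31637 genes tested, of which 12432 had a symbol. The others are array identifiers without a symbol, each counted as a gene.

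The samples were 6 renal cortices, each from a different male Sprague-Dawley rat, and each was hybridised to a 1-colour Agilent array of its own. The tricresyl phosphate group held 3 rats given 200 mg/kg/day of this organophosphate plasticiser and flame retardant for 4 weeks. The corn oil group held 3 rats given corn oil for 4 weeks. The rats were bought at 5 weeks of age and shared a basal diet, and the cortex RNA is a mixture over all its cell types. The comparison asks whether the transcripts of these pump subunits differ after tricresyl phosphate.

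The pump moves sodium out of the cell and potassium into it at the cost of ATP, and so drives sodium reabsorption along the whole nephron. Its catalytic alpha subunit carries the ions, and a beta subunit, a glycoprotein, is needed for folding of the pump and its delivery to the membrane. Fxyd proteins are small single-span membrane proteins that attach to the pump and adjust its affinity for sodium or potassium. In the kidney they differ by nephron segment.

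Each level below is the log2 of the processed signal after the array's 75th percentile was subtracted, so that 0 is that percentile and 1 unit is a doubling. Levels of different probes are not set against each other, since probes differ in how brightly they hybridise. Differences are tricresyl phosphate minus corn oil, with SE and 95% interval from limma. Adjusted p-values are Benjamini-Hochberg values over all 31637 genes, and the threshold was an adjusted p under 0.05.

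No pump subunit passed the threshold. Of the 6 subunit genes, 0 were higher and 0 lower by limma, where 0% of all genes passed. At an unadjusted limma p under 0.05 there were also 0 of 6, against 5.49% of all genes. The 3 tricresyl phosphate animals overlapped the 3 corn oil animals in all 6 genes, and over all genes the groups did not overlap in 11.8%. With only 6 genes, counts of 0 are not set apart from these shares. The median difference over the 6 genes was −0.036, beside −0.038 over all genes tested. In bulk tissue, fewer cells of a type and less RNA per cell cannot be told apart.

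The arrays were alike. Correlations over all genes lay between 0.988 and 0.990 within groups and between 0.987 and 0.991 between groups, and no spot was saturated. Corn oil replicate 1 lay alone on a slide, and the other 5 arrays shared a second slide and scan. Marker levels were summed on the linear scale and the sum given as log2, so the brightest markers weigh most. All 10 proximal tubule markers were detected. The log2 of their sum was 10.97 to 11.20 with tricresyl phosphate and 11.16 to 11.24 with corn oil. Of the 10, 8 were lower with tricresyl phosphate and 2 higher, with a median difference of −0.12, and 0 passed the threshold. All 8 thick ascending limb markers were detected too. The log2 of their sum was 8.16 to 8.58 with tricresyl phosphate and 8.41 to 8.63 with corn oil. For markers of peripheral nerve and glia, with Gfap not detected, the log2 of the sum was −1.12 to −1.06 with tricresyl phosphate. With corn oil it was −1.20 to −1.10. Of 8 principal cell markers, 7 were higher with tricresyl phosphate and 1 lower, with a median difference of 0.13. Of 8 intercalated cell markers, 6 were higher and 2 lower, with a median of 0.16. In both lists 0 passed, and the cause of these differences was not tested.

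Atp1b1 encodes the main beta subunit of kidney tubules. Its level was 8.09, 8.01 and 7.66 in the tricresyl phosphate animals, against 7.93, 8.09 and 8.26 in the corn oil animals. Tricresyl phosphate replicate 3 was the lowest of the 6, and the other 2 treated animals lay within the corn oil range. The group means were 7.92 ± 0.23 with tricresyl phosphate and 8.10 ± 0.16 with corn oil (SD, n = 3 each). The difference was −0.17 ± 0.15 (SE), or 0.887-fold, with an interval from −0.54 to 0.20 and an adjusted limma p of 0.835. Without tricresyl phosphate replicate 3 the difference was −0.042, and within the shared slide it was −0.25.

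Most genes with a level near that of Atp1b1 were also lower on average with tricresyl phosphate. Among the 133 other genes within 0.5 log2 units of its level, 91.0% were lower with tricresyl phosphate, with a median difference of −0.12. Over all genes tested, 59.2% were lower. After quantile normalization, which gives all arrays the same distribution of signals, the Atp1b1 difference was −0.056. Whether signal level or scaling accounts for the Atp1b1 difference was not tested.

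Atp1b2 encodes the beta subunit also known as the adhesion molecule on glia, which is best known from brain. Its brightest probe read 0.47, 0.58 and 0.073 in the tricresyl phosphate animals, against 0.27, 0.25 and −0.20 in the corn oil animals. Replicates 1 and 2 of the treated group were the highest of the 6, while treated replicate 3 lay inside the corn oil range. The means were 0.37 ± 0.27 with tricresyl phosphate and 0.10 ± 0.27 with corn oil (SD, n = 3 each). The difference of 0.27 ± 0.19 (SE), 1.21-fold, was the largest of the 6 genes, yet the interval ran from −0.19 to 0.73 and the adjusted limma p was 0.814. It was 0.35 within the shared slide. Leaving out tricresyl phosphate replicate 3 gave 0.42, and leaving out corn oil replicate 3 gave 0.12.

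Of the other probes of Atp1b2, 1 was well above background on 3 of the 6 arrays, 2 with tricresyl phosphate and 1 with corn oil. Its difference was 0.28 ± 0.46 (SE), and its adjusted limma p over all probes was 0.910. The last probe was well above background on 0 of 6 arrays and was not tested. The level of this gene therefore rests on 1 bright probe.

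Atp1b3 encodes a widely expressed beta subunit, and it was the steadiest subunit transcript. It read 2.77, 2.81 and 2.88 with tricresyl phosphate, against 2.87, 2.82 and 2.84 with corn oil. All 6 animals lay within 0.10 log2 units of each other. The difference was −0.023 ± 0.079 (SE), with an interval from −0.22 to 0.17, which spans 0.861-fold to 1.12-fold, and an adjusted limma p of 0.959. The within-group SD was 0.040, beside a median of 0.11 for genes within 0.5 log2 units of its level. The same SD was 0.27 for Atp1b2, beside a median of 0.13 for genes of like signal, and 0.20 for Atp1b1, beside 0.12.

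The RefSeq promoter table (build GRCr8) held 5 of the 7 listed genes: Atp1b2, Atp1b3, Fxyd1, Fxyd4 and Fxyd5. The promoters of Atp1b2 and Atp1b3 are shown because these are the beta subunit genes of the table, and their transcripts were the most and the least variable between animals. Each line gives the 250 bases before the start, 5′ to 3′, with capitals marking, on either strand, the TATA box motif TATAAA, the GC box motif GGGCGG and the CCAAT box.
Atp1b2: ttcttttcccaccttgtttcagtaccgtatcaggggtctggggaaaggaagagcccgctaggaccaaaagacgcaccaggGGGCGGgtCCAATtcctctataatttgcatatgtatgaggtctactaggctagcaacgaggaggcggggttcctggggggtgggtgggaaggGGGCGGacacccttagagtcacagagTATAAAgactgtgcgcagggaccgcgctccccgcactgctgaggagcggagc
Atp1b3: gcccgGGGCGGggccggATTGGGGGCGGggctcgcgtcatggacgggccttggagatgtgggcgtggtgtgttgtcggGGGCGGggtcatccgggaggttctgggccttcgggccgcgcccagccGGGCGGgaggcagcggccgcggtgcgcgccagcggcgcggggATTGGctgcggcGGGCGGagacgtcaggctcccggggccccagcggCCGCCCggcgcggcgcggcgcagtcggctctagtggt

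The Atp1b2 stretch lies at chr10:54823709-54823958 on the minus strand, and the Atp1b3 stretch at chr8:105821152-105821401 on the minus strand. The Atp1b2 promoter holds TATAAA with its first base 52 bases before the start, together with 2 GC boxes (GGGCGG) and 1 CCAAT. The Atp1b3 promoter holds 6 GC boxes and 2 CCAAT, and no TATAAA in this window. Its GC content is 79.6%, beside 58.0% for Atp1b2 and a median of 51.2% over all 33469 promoters of the table. Among those promoters 12.9% hold TATAAA, 30.5% hold GGGCGG and 34.0% hold CCAAT within the same 250 bases. The promoters of Fxyd1, Fxyd4 and Fxyd5 held no TATAAA either, and that of Fxyd2 was not in the table. These matches are a description of letters, and nothing in these arrays measured binding there.

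Fxyd2 encodes the gamma subunit, the Fxyd protein most closely tied to the kidney, where it lowers the pump's apparent affinity for sodium. Its level was 7.41, 7.30 and 7.23 with tricresyl phosphate, against 7.49, 7.32 and 7.50 with corn oil. Replicate 3 of the treated group was the lowest animal, and corn oil replicate 2 lay inside the treated range. The means were 7.31 ± 0.088 with tricresyl phosphate and 7.43 ± 0.10 with corn oil (SD, n = 3 each). The difference was −0.12 ± 0.097 (SE), 0.920-fold, with an interval from −0.36 to 0.12 and an adjusted limma p of 0.826. Within the shared slide it was −0.092.

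The second probe of Fxyd2 gave the same picture, with a difference of −0.12 ± 0.098 (SE). It read 6.34, 6.27 and 6.19 with tricresyl phosphate, against 6.46, 6.25 and 6.44 with corn oil. Over the 6 arrays the probes of Fxyd2 correlated at r = 0.990. Both probes are bright and were read on the same arrays, so this r cannot separate variation of the transcript from variation of the array. Among the 251 other genes within 0.5 log2 units of its level, 91.6% were lower with tricresyl phosphate, with a median difference of −0.13. Over all genes tested, 59.2% were lower. After cyclic loess normalization the sign of the Fxyd2 difference turned, to 0.011.

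Fxyd5 encodes dysadherin, an Fxyd protein with a long extracellular part that is also known for its effect on cell adhesion. It read 0.53, 0.66 and 0.57 with tricresyl phosphate, against 0.61, 0.67 and 0.48 with corn oil. The treated animals all lay inside the corn oil range. The difference was −0.0013 ± 0.092 (SE), with an interval from −0.23 to 0.22, which spans 0.855-fold to 1.17-fold, and an adjusted limma p of 0.998. Its second probe differed by −0.011 ± 0.10 (SE) and correlated with the first at r = 0.939 over the 6 arrays. Of the leucocyte and macrophage markers, 8 of 8 were detected. The log2 of their sum was 6.30 to 6.82 with tricresyl phosphate and 6.36 to 6.88 with corn oil.

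Fxyd1 encodes phospholemman, the Fxyd protein of heart and skeletal muscle, where its phosphorylation relieves inhibition of the pump. It was below the 75th percentile of each array but well above background on all 6. It read −1.76, −1.35 and −1.94 with tricresyl phosphate, against −1.84, −1.44 and −1.63 with corn oil. The treated group held both the highest and the lowest animal. The means were −1.68 ± 0.30 with tricresyl phosphate and −1.64 ± 0.20 with corn oil (SD, n = 3 each). The difference was −0.048 ± 0.18 (SE), with an interval from −0.50 to 0.40 and an adjusted limma p of 0.964. It was −0.15 within the shared slide and 0.081 without tricresyl phosphate replicate 3. Of the vascular smooth muscle and pericyte markers, 6 of 7 were detected and Cnn1 was not. The log2 of their sum was 2.04 to 2.20 with tricresyl phosphate and 1.82 to 2.26 with corn oil.

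**Figure D1:**
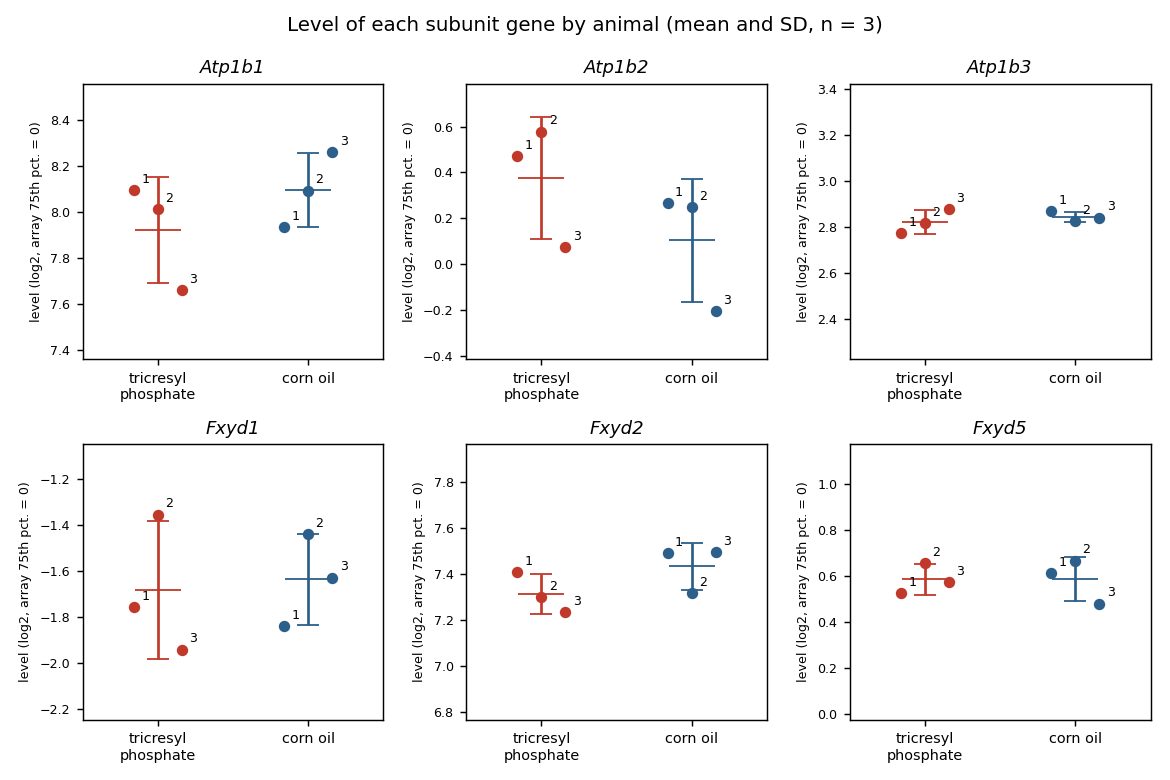
Level of each of the 6 subunit genes by animal, as log2 processed signal minus the 75th percentile of the array. Points are animals with their replicate numbers, bars are mean and SD of 3, and every panel spans 1.2 log2 units; the groups overlap in every panel, and Atp1b3 varies least, by 0.10 log2 units over all 6 animals.

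**Figure D2:**
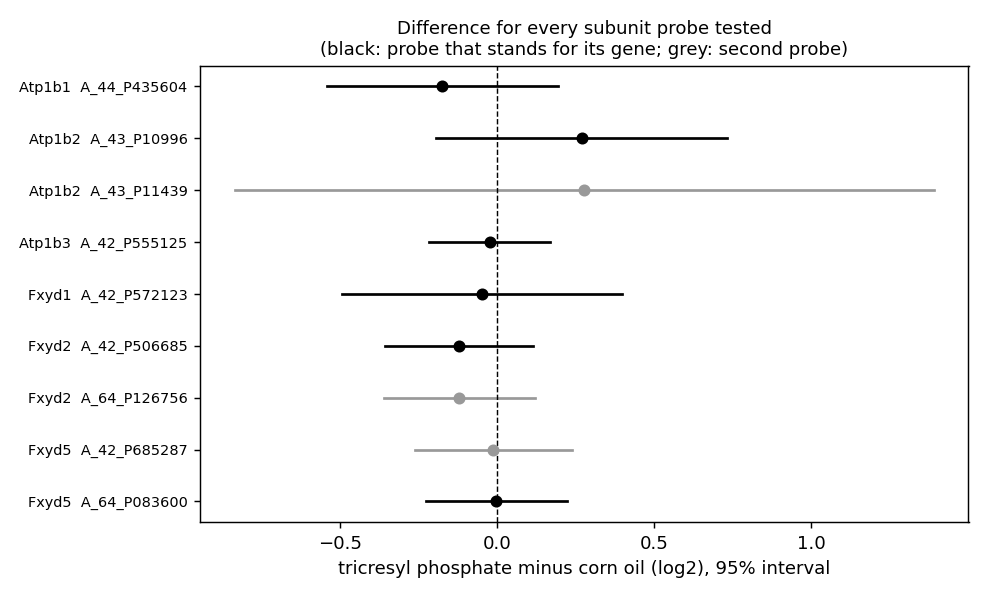
Difference of each of the 9 tested subunit probes, tricresyl phosphate minus corn oil on the log2 scale, with the 95% interval from limma. Every interval includes 0, and it is widest for the second Atp1b2 probe, which was well above background on 3 of 6 arrays.

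**Figure D3:**
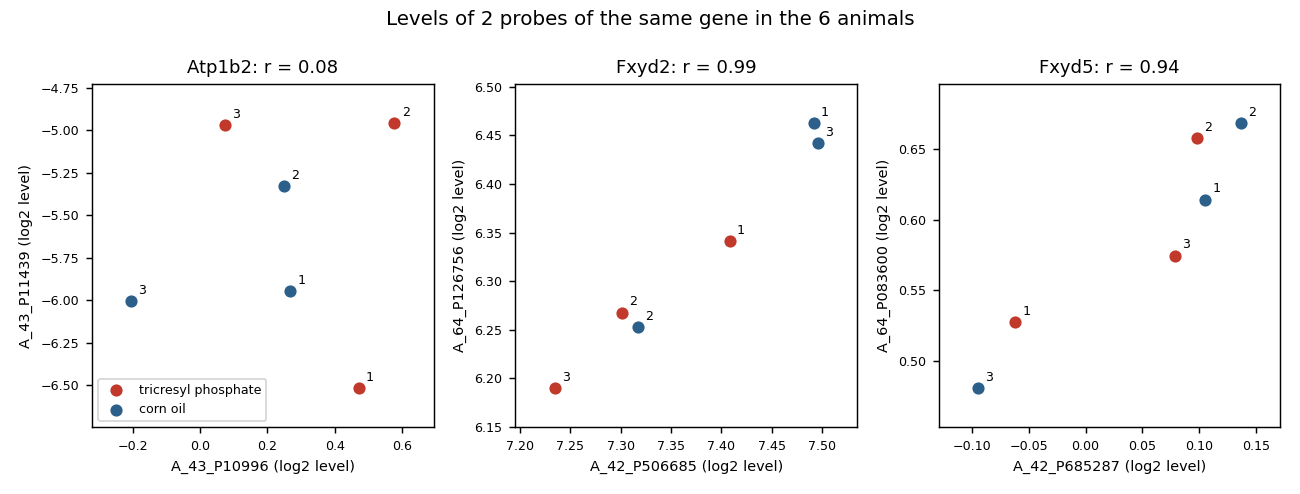
Log2 levels of 2 probes of the same gene in the 6 animals, with replicate numbers beside the points. Both probes order the animals much alike for Fxyd2 (r = 0.990) and Fxyd5 (r = 0.939), and not for Atp1b2 (r = 0.081), where 1 of the probes is near background.

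The balance between subunits was compared within each array, as the log2 ratio of each gene to Atp1b1. Only the difference of a ratio between groups is read, not its own level. The Atp1b2 ratio was −7.62, −7.44 and −7.59 with tricresyl phosphate, against −7.67, −7.84 and −8.46 with corn oil. All 3 treated animals lay above all 3 corn oil animals, by a margin of 0.043 between the nearest animals. The difference was 0.44, and the exact two-sided permutation p was 0.1, the smallest that 3 against 3 animals allow, or 0.5 after adjustment over the 5 ratios. The groups overlapped under normexp and quantile normalization (0.34, exact permutation p = 0.3) and with the mean of kept probes (0.45, exact permutation p = 0.3). Without corn oil replicate 3, the lowest animal, the difference was 0.21. Thus 1 of 5 ratios had groups that did not overlap, where the ratio to Atp1b1 did so for 8.35% of all genes, and for 7.47% in the higher direction. Genes near the level of Atp1b1 had a median difference of −0.12, and genes near that of Atp1b2 had −0.0082. How far this enters the ratios was not tested.

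The other ratios to Atp1b1 overlapped between groups. They differed by 0.17 for Fxyd5, 0.15 for Atp1b3, 0.13 for Fxyd1 and 0.054 for Fxyd2, with exact two-sided permutation p-values of 0.5 or 0.6. The Fxyd2 ratio was −0.69, −0.71 and −0.42 with tricresyl phosphate, against −0.44, −0.78 and −0.76 with corn oil. Every one of the 5 ratios shares the Atp1b1 value of the same array, so they are not independent of each other.

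**Figure D4:**
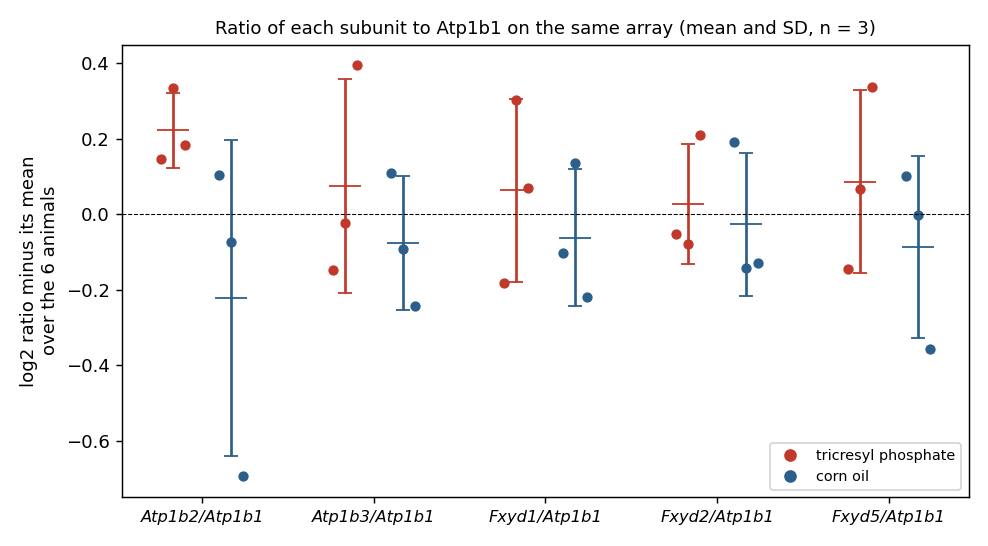
Log2 ratio of each subunit gene to Atp1b1 on the same array, minus its mean over the 6 animals, with mean and SD of 3 animals. The groups are apart for Atp1b2 by 0.043, a separation absent under normexp and quantile normalization and with the mean of kept probes, and they overlap for the other 4 genes.

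Correlations between the subunit genes from animal to animal had either sign, and 6 arrays cannot decide whether the genes share part of their variation. Pearson's r between pairs of them over the 6 arrays, given as a description, ranged from −0.57 for Atp1b1 with Atp1b3 to 0.63 for Atp1b1 with Fxyd2. Fxyd5 and Fxyd1 lie in 1 run of Fxyd genes on chromosome 1 in GRCr8, on either side of Fxyd7, and their r was 0.48. Fxyd2 lies next to Fxyd6 on chromosome 8.

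The genes whose pattern over the 6 arrays was most like each subunit were ranked by Pearson's r. Only genes with a symbol are named, with predicted loci skipped, whereas the counts include genes without a symbol. With 6 arrays a high r is easily reached: 201 genes reached r of 0.95 or more with Fxyd2, 125 with Atp1b1, 44 with Fxyd5, 42 with Atp1b2, 40 with Fxyd1 and 26 with Atp1b3, out of 31612. For Fxyd2 the most alike were Accs (r = 0.990), the antioxidant enzyme gene Prdx2 (0.988) and Ppp1r1a (0.987), a protein phosphatase inhibitor gene listed here among thick ascending limb markers. For Atp1b1 they were Fdps (0.987), an enzyme of isoprenoid synthesis, Srek1 (0.986) and Amh (0.984). For Fxyd1 they were Ptgis (0.995), the prostacyclin synthase gene, Ccdc8 (0.988) and the sodium, calcium and potassium exchanger gene Slc24a3 (0.982). For Atp1b2 they were Or52s6 (0.991), Mlana (0.990) and Traf3ip2 (0.989). For Atp1b3 they were Zfp14 (0.979), Nat2 (0.976) and Srgn (0.974), and for Fxyd5 Gzmb (0.991), Dpp6 (0.990) and Ppara (0.984). None of these 18 passed the threshold between groups.

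The remaining beta and Fxyd genes of the family did not pass either. Of 4 listed, 3 were tested: Fxyd7 differed by 0.18 ± 0.30 (SE), Fxyd6 by −0.066 ± 0.21 (SE) and Fxyd3 by −0.16 ± 0.75 (SE). Adjusted limma p-values lay between 0.911 and 0.970. Fxyd3 read −2.89, −5.09 and −5.55 with tricresyl phosphate, against −3.53, −4.64 and −4.87 with corn oil. The groups overlapped, and the animals of each group differed from each other by more than the group means did. Fxyd3 was dim, at a mean level of −4.43, so differences between animals and noise of measurement cannot be told apart.

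Channels and transporters that return potassium and chloride through the basolateral membrane work beside the pump. Of 13 channel and transporter genes listed around this step, all tested, 0 passed. At an unadjusted limma p under 0.05 there were 2 higher and 1 lower, against 1.63% and 3.86% of all genes. The arrays do not show in which membrane a protein lies, and not every listed channel need be basolateral. The groups did not overlap in 4 of the 13, against 11.8% of all genes. Kcnj15, an inwardly rectifying potassium channel of the tubule, differed by 0.30 ± 0.097 (SE). The voltage-gated channel gene Kcnq1 differed by 0.30 ± 0.11 (SE). Kcnk5, a two-pore potassium channel of the proximal tubule, differed by −0.41 ± 0.15 (SE). All 3 had an adjusted limma p of 0.811. The median over the 13 genes was −0.039, beside −0.038 over all genes.

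Apical proteins that let sodium into the tubule cell set the load of the pump. Of 10 genes tested, 0 passed, 1 was lower at an unadjusted limma p under 0.05, and the groups did not overlap in 1, against 3.86% and 11.8% of all genes. The glucose cotransporter genes Slc5a1 and Slc5a2 differed by −0.31 ± 0.13 (SE) and −0.13 ± 0.10 (SE), and Scnn1g, a subunit of the epithelial sodium channel, by 0.14 ± 0.12 (SE). Their adjusted limma p-values were 0.811, 0.820 and 0.837.

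Scaffold proteins and regulators of the pump gave 14 tested genes of 20 listed. Of these 0 passed, 0 reached an unadjusted limma p under 0.05, and 0 had groups that did not overlap. The smallest p-values belonged to Nr3c2, the mineralocorticoid receptor gene, at −0.19 ± 0.18 (SE), Hsd11b2, the enzyme that inactivates glucocorticoids in aldosterone target cells, at 0.099 ± 0.11 (SE), and Prkcz at 0.098 ± 0.12 (SE). The proton-potassium pump genes Atp4b, Atp12a and Atp4a differed by −0.22 ± 0.18 (SE), −0.076 ± 0.21 (SE) and −0.047 ± 0.16 (SE), and 0 of 3 passed. Atp4b was dim, at a mean level of −4.79.

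The differences of 4 of the 6 subunit genes turned under at least 1 other setting. Over 18 other settings, Atp1b1 stayed lower and Atp1b2 stayed higher in all 18, with values from −0.26 to −0.030 and from 0.12 to 0.42. Fxyd2 was lower in 17 of 18, Fxyd1 in 16 and Atp1b3 in 14. Fxyd5 was lower in 10 and higher in 8. Adjusted limma p-values of the 6 genes lay between 0.729 and 0.999 over all these settings. Not all 18 could change a direction. Other filters on dim probes, kept outlier spots, the variance model and the replicate block left all 6 differences as reported. The authors' value table holds the same signals rescaled. Counts of settings that kept a direction are therefore not counts of independent checks.

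**Figure D5:**
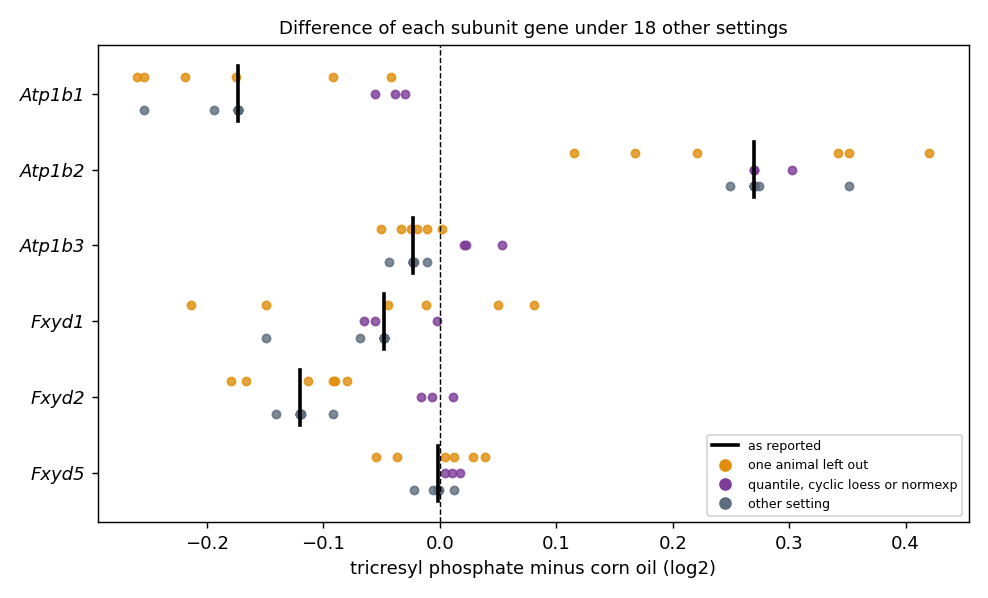
Difference of each subunit gene, tricresyl phosphate minus corn oil on the log2 scale, as reported (black line) and under 18 other settings (points). Values of Atp1b1 and Fxyd2 lie closer to 0 under quantile, cyclic loess and normexp normalization, and those of Atp1b2 span 0.12 to 0.42 with single animals left out.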

How the data were processed

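RNA from the renal cortex of 6 rats, 3 given tricresyl phosphate and 3 given corn oil, was labelled with Cy3 and hybridised to 1-colour arrays, per the labels' protocols. Feature Extraction of Agilent was used by the authors to quantify them (10.7 in the submitters' processing notes, 10.7.1.1 in the file headers). Intensity values were deposited on a linear scale: a processed signal after subtraction of background and spatial detrending, per the file headers, and the median signal and local background of each spot. In the table of values that the authors also deposited, intensity on brighter probes was proportional to the processed signal, with 1 constant for each array (coefficient of variation up to 0.0123%), so it is linear and uncentred. Its column medians lie between 0.1094 and 0.1152, and which software scaled it is not stated in the labels or headers.

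Probes were named through the RefSeq table of GRCr8, which gave 28206 probes a symbol, several to 0 and none to 33331. The 1439 control spots were left out and 77 outlier spots set missing. A probe was kept if well above background on at least 3 of 6 arrays (43099 probes), and a gene was its kept probe with the highest mean level. The number of probes well above background ranged from 41503 to 43823, median signals were 102.6 to 133.2 over a median background of 33.0 to 41.0, and the number of arrays limits precision. The test was two-sided, with limma 3.58.1 (lmFit, then eBayes) under R 4.3.3, and the fit was tested on simulated data. The simulation gave all genes the same spread and used changes larger than the subunit differences. It therefore does not show whether differences as small as these would be found.

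All subunit genes are named whatever their values. For each, the 3 genes with the highest r among those with a symbol are given, with predicted loci skipped. For each list around the pump the 3 genes with the smallest p are given. The members and lists were chosen with earlier results of these data known. The catalytic subunits are not among the listed genes and are not reported here. Alternatives were other normalizations, normexp with an offset of 50 on median signals, the authors' value table, other filters, probe rules and variance models, slide and replicate number as blocks, and leaving out each array.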

Additional observations from a re-analysis of the deposited data

How the results depend on the processing

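No subunit gene passed the threshold under any of the 18 alternatives for genes or with every kept probe tested on its own. Over all genes, normexp with quantile normalization and the variance model with intensity trend and robust estimation each gave 2 genes past the threshold, where the reported comparison gave 0, and leaving out single arrays gave 0 to 1. Of 108 values for the 6 subunit genes, 93 kept their direction and 15 turned, and the cause was not tested. The 93 include values from settings that left the differences as reported, so they are not independent checks. The Atp1b3 difference turned to 0.020 under quantile normalization, 0.022 under cyclic loess and 0.053 under normexp, and that of Fxyd2 to 0.011 under cyclic loess. The Fxyd5 difference turned to 0.017, 0.0043 and 0.010 under the same 3 normalizations, and to 0.012 with the slide as a block. With single arrays left out, values ranged from −0.051 to 0.0016 for Atp1b3, from −0.21 to 0.081 for Fxyd1 and from −0.055 to 0.039 for Fxyd5. In these ranges Atp1b3 turned, to 0.0016, without tricresyl phosphate replicate 1, and Fxyd1 to 0.049 without corn oil replicate 2 and 0.081 without tricresyl phosphate replicate 3. Fxyd5 turned to 0.028 and 0.0047 without tricresyl phosphate replicates 1 and 3, and to 0.012 and 0.039 without corn oil replicates 1 and 2. The ratio of Atp1b2 to Atp1b1 stayed higher with single arrays left out, by 0.21 to 0.61. Deviations of same-numbered arrays from their group means correlated at 0.086, −0.051 and −0.044, and those of differently numbered arrays at −0.078 to 0.12. With 3 arrays per group these values cannot decide whether the replicate numbers pair the animals. With the replicate block, 0 subunit genes and 0 of all genes passed, and Atp1b2 had an unadjusted limma p of 0.034 and an adjusted p of 0.753. With slide as a block, 0 passed too, and this block amounts to leaving out corn oil replicate 1. The number of arrays limits the precision: the 95% intervals of the 6 genes reach from 0.687-fold to 1.66-fold at their widest ends.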
